A study of Mus musculus with 6 samples.

Results

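Counts listed under 10 genes for calcium-dependent and membrane-binding proteins were examined in 3T3-L1 mouse fibroblasts treated with extracellular vesicles (EVs). The genes are Myof (myoferlin), the annexins Anxa1, Anxa2, Anxa5 and Anxa6, the S100 genes S100a4, S100a6 and S100a11, and the galectins Lgals1 and Lgals3. They were chosen by symbol and matched to the count table by Entrez identifier, and all 10 were found among its 23725 genes. 3T3-L1 is a mouse embryonic fibroblast line that can be turned into fat cells. The EV group had 3 plates treated for 24 h with separate EV preparations from MLP29, a clonal epithelial line of mouse liver progenitors, and these libraries carry the numbers 1, 2 and 4. The control group had 3 plates, numbered 1, 2 and 3, that received for 24 h the same kind of preparation made from medium that had held no cells. All plates were kept in vesicle-depleted medium. EVs were pelleted from conditioned medium in successive spins, so the treatment may hold more than EVs.

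Annexins are proteins that bind acidic phospholipids when calcium rises, and so attach to the inner face of the plasma membrane and to endosomes. S100 proteins are small EF-hand calcium sensors, several of which bind annexins and join them to the cytoskeleton. Myoferlin, a large membrane protein with many C2 domains, takes part in membrane fusion and repair, and galectins bind sugars at the cell surface and on damaged endosomes. In fibroblasts these proteins are known for work in membrane repair, vesicle traffic, adhesion and migration.

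The libraries held between 508599 and 665465 counts in all. That is far below the number of reads that the authors' methods aimed for, and the reason was not tested. A stranded kit was used, but the strand setting of the counting is not named in the sources used here. Genes with an exon overlapped on the opposite strand took 52.6, 52.5 and 53.9% of the counts in control libraries 1, 2 and 3. They took 55.7, 56.7 and 55.9% in EV libraries 1, 2 and 4, so the groups did not overlap. Such genes made up 24.8% of the genes matched to the annotation. Each value is therefore the count listed under a gene and may not stand for its mRNA. Actb, which encodes beta-actin, had 116, 162 and 129 counts in control libraries 1, 2 and 3. It had 36, 79 and 75 counts in EV libraries 1, 2 and 4. Whether these counts stand for Actb mRNA was not tested. Of 15 fibroblast markers, 14 had enough counts to be tested, and Lum was at 0 in every library. Of 15 markers of the epithelial donor cell, 9 were at 0 in every library, among them Epcam, Krt8, Krt18 and Alb. Sox9 had between 9 and 13 counts per library, and Spp1 was the one marker of this list with enough counts to be tested. Of 7 macrophage markers none had enough counts to be tested, and Ptprc and Adgre1 were at 0 in every library.

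Except for Anxa2, the 10 genes have no exon overlapped by an annotated gene on the opposite strand. Exons of Anxa2 share 98 bases with the antisense gene Gm16144, which was not analysed here. The S100a4 exons share 302 bases with Gm42674 on the same strand. The S100a11 transcript matches the processed pseudogenes Gm7665 and Gm12854 over 297 bases each, at an identity of 98.7 and 99.0%. Reads can be shared between such copies, so the counts of S100a4 and S100a11 carry this uncertainty.

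The 250 bases before the start of transcription are printed for 6 of the genes, to set Myof, Anxa1, Anxa2 and S100a4, which fell after EV treatment, beside Anxa5 and S100a11, which did not pass the test. RefSeq sequences of the mouse build GRCm38.p6 were used, and 8 of the 10 genes matched; Anxa6 and Lgals1 had no entry. The windows on the minus strand are chr19:38043578-38043827 for Myof, chr19:20390672-20390921 for Anxa1 and chr3:36475888-36476137 for Anxa5. Those on the plus strand are chr9:69453433-69453682 for Anxa2, chr3:90603520-90603769 for S100a4 and chr3:93520246-93520495 for S100a11. Capitals mark matches, on either strand, to the AP-1 letters TGANTCA, the TATA box letters TATAAA, the GC box letters GGGCGG and the TEAD letters GGAATG, and matches of different motifs did not overlap. Each line reads 5′ to 3′ on the strand of its gene.
Myof: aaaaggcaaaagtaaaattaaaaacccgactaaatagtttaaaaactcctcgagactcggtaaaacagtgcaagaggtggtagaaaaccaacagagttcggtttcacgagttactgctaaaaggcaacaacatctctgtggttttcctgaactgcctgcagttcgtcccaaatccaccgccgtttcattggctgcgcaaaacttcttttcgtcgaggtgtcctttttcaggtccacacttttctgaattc
Anxa1: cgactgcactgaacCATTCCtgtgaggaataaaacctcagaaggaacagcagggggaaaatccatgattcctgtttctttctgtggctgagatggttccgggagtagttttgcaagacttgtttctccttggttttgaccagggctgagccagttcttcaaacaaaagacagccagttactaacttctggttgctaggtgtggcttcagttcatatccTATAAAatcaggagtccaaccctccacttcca
Anxa2: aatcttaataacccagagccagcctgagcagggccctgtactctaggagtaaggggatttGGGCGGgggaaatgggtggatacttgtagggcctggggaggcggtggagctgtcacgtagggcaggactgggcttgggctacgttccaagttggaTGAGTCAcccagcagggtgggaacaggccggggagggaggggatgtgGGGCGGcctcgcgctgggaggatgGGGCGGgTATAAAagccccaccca
Anxa5: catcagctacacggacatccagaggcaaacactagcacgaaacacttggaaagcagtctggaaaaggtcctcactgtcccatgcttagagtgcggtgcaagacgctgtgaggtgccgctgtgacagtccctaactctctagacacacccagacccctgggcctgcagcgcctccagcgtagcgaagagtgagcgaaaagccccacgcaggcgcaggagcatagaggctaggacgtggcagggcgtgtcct
S100a4: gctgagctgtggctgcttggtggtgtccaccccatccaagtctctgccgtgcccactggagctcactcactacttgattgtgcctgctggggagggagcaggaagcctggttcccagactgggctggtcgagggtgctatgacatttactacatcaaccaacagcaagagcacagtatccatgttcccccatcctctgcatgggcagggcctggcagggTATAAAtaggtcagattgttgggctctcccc
S100a11: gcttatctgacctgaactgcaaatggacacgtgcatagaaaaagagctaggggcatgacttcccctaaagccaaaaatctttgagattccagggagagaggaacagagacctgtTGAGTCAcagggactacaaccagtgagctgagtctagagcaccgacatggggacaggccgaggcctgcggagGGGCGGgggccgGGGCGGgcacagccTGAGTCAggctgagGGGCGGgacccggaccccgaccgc

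The AP-1 letters were found once before Anxa2 and at 2 places before S100a11, and they occur in 6.75% of the 32851 promoter windows of the build. The TATA letters lie before Anxa1, Anxa2 and S100a4, against 12.4% of all windows. GC box letters lie before Anxa2, S100a11 and Lgals3, against 32.7% of all windows. The TEAD letters lie before Anxa1 (12.6% of all windows), and the CArG box was found before none of the 8 genes and in 1.47% of all windows. The windows of Myof, Anxa5 and S100a6 held none of these letters. No set of letters was shared by all genes that fell, and a match of letters is not a binding site.

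After 24 h with EVs, the counts listed under 8 of the 10 genes were lower than in control libraries, and none was higher. They were Myof, Anxa1, Anxa2, Anxa6, S100a4, S100a6, Lgals1 and Lgals3. Anxa2 fell by 34.7% and Anxa1 fell by 62.2%, the smallest and the largest of these decreases. Anxa5 and S100a11 did not pass the test. The test was edgeR's quasi-likelihood test on TMM-scaled counts, adjusted by the Benjamini-Hochberg method across 5066 genes with enough counts, and the threshold was an adjusted p of 0.05. Of all genes tested, 14.3% were lower by this rule and 7.58% were higher. In 8 of the 10 genes every EV library lay below every control library, which was so for 21.5% of all genes tested (39.4% when either direction is counted). The log2 fold change was below 0 in 9 of the 10 genes and in 48.8% of all genes tested. The DESeq2 Wald test called 6 of the 10 genes lower, against 5.8% of all genes tested. The median log2 fold change of the 10 genes was -0.95, against 0.014 for all genes tested. In these bulk samples, fewer cells with a transcript and less of it per cell cannot be told apart. Neither can be told apart from a shift in how the counts were made or scaled, since a listed count may not stand for mRNA.

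**Figure D1:**
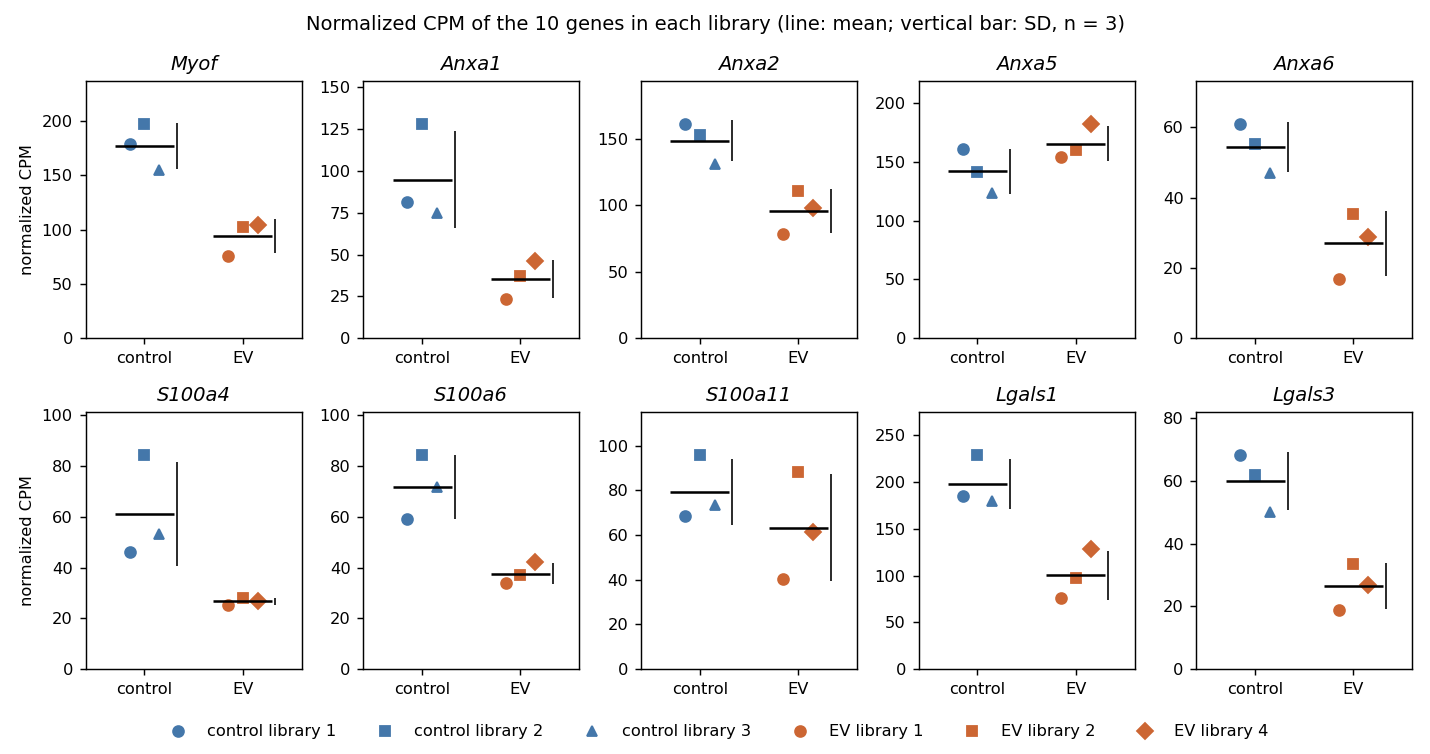
Normalized CPM (counts scaled to a common library total) of the 10 genes in each library, with a separate vertical axis from 0 for each gene. Points are libraries, horizontal lines the mean and vertical bars the SD of 3 libraries per group; in 8 genes the EV libraries lie below the control libraries, while in Anxa5 and S100a11 the groups overlap.

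**Figure D2:**
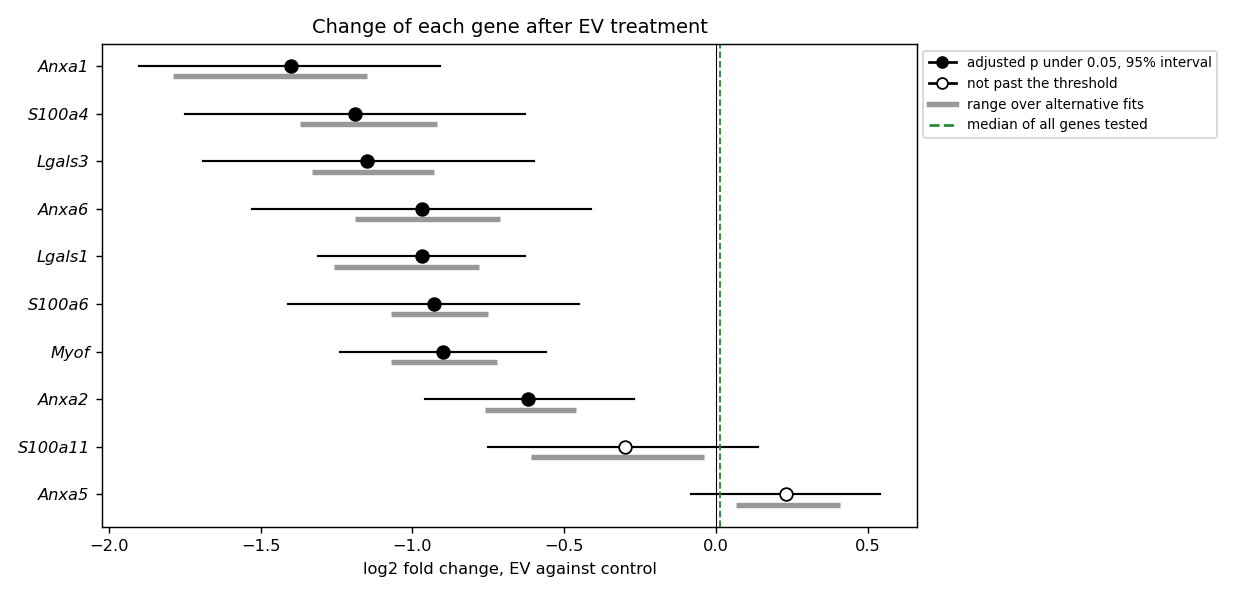
Log2 fold change of each gene, EV against control, with its 95% confidence interval (black), and the range of the value over the alternative fits (grey). Filled points passed an adjusted p of 0.05; Anxa1 had the largest decrease (-1.40) and Anxa5 was the one gene with a positive value (0.23).

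The 10 genes together took 0.107, 0.124 and 0.0923% of the counts in control libraries 1, 2 and 3, and 0.0505, 0.0658 and 0.068% in EV libraries 1, 2 and 4. These shares do not overlap. They are scaled by the library total alone, without the TMM factors. Those factors were 1.06, 1.07 and 1.01 in control libraries 1, 2 and 3, and 0.967, 0.941 and 0.952 in EV libraries 1, 2 and 4. EV library 1 was the lowest of the 6 libraries in 9 of the 10 genes, against 24.3% of all genes tested, and control library 2 was the highest in 6 of them, against 21.8%. Without EV library 1, 6 genes passed, since Anxa2 (adjusted p = 0.0681) and Anxa6 (adjusted p = 0.0743, both from edgeR's quasi-likelihood test) no longer did. The fibroblast markers moved in the same direction: 10 of the 14 tested were lower, against 14.3% of all genes tested, and their median log2 fold change was -1.03, against 0.014 for all genes. Their summed level was between 3030 and 3530 CPM in control libraries and between 1390 and 1770 CPM in EV libraries. Spp1, which encodes osteopontin and was on the list for the epithelial donor cell, was also lower, with 17, 45 and 39 counts in control libraries and 7, 9 and 7 in EV libraries (log2 fold change -1.91, adjusted p = 2.29e-05 by edgeR). The summed level of that list was between 68.3 and 109 CPM in control libraries and between 40.3 and 52.8 CPM in EV libraries. In that sum Spp1 had 31.4, 73.2 and 60.9 CPM in control libraries 1, 2 and 3. It had 14.8, 15.9 and 13.4 CPM in EV libraries 1, 2 and 4. No other gene of that list had enough counts to be tested, so the sum does not speak for the whole list. The part of both lists in the result for the 10 genes was not tested. Actb, which is on neither list, was named after its values were seen. Its log2 fold change was -0.90 (adjusted p = 7.23e-05 by edgeR), beside a median of -0.95 for the 10 genes. A decrease of about this size was thus not particular to the 10 genes.

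Myof, which encodes the membrane repair protein myoferlin, lies on chromosome 19 (37899036 to 38043577 of mm10, minus strand). It had 97, 121 and 99 counts in control libraries 1, 2 and 3, and 36, 58 and 54 in EV libraries 1, 2 and 4. Every EV library was thus below every control library. The level went from 177 ± 21.1 to 93.9 ± 15.5 normalized CPM (SD, n = 3 per group), that is, counts scaled by library total and TMM factor. This was a log2 fold change of -0.90 ± 0.17 (SE; 95% interval -1.24 to -0.56, adjusted p = 8.95e-05 by edgeR). In other words, the counts fell by 46.4%, and Myof passed the threshold in all 13 alternative fits, with log2 fold changes between -1.07 and -0.72.

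Of the other ferlin genes, 1 had enough counts to be tested. Fer1l5, a ferlin of muscle, had 37, 63 and 66 counts in control libraries and 65, 58 and 59 in EV libraries, with overlapping groups and a log2 fold change of 0.34 ± 0.18 (SE; adjusted p = 0.17 by edgeR). Its exons are overlapped by Lman2l on the opposite strand. Dysf, the ferlin mutated in muscular dystrophy, had between 3 and 8 counts per library, too few for a comparison at this depth. Both were named after their values were seen.

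Of the 4 annexins, 3 fell and Anxa5 did not pass the test, where 14.3% of all genes tested were lower. Anxa1, which encodes an anti-inflammatory annexin of the plasma membrane, showed the largest decrease of all 10 genes. On chromosome 19 (20373434 to 20390671, minus strand), it had 44, 79 and 48 counts in control libraries and 11, 21 and 24 in EV libraries. The highest EV library had fewer counts than the lowest control library, although control library 2 stood above the other controls. Its level was 94.9 ± 29.2 normalized CPM in control and 35.4 ± 11.5 in EV libraries (SD, n = 3 per group), a log2 fold change of -1.40 ± 0.25 (SE; adjusted p = 2.76e-05 by edgeR). The counts fell by 62.2%, with log2 fold changes between -1.79 and -1.15 over 13 alternatives, all past the threshold.

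Anxa2, the annexin that pairs with S100A10 and organizes actin at membranes, lies on chromosome 9 (69453683 to 69491792, plus strand). It had 87, 94 and 84 counts in control libraries and 37, 63 and 51 in EV libraries. The groups did not overlap, but the decrease was the smallest of the 8 genes. The log2 fold change was -0.62 ± 0.17 (SE; 95% interval -0.96 to -0.27, adjusted p = 0.00801 by edgeR). It missed the threshold with the DESeq2 Wald test (adjusted p = 0.0523), with no filter on low counts (adjusted p = 0.0522 by edgeR) and without EV library 1.

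Anxa6, the large annexin of endosomes and cholesterol traffic, lies on chromosome 11 (54978953 to 55033471, minus strand). It had 33, 34 and 30 counts in control libraries and 8, 20 and 15 in EV libraries. All EV libraries were again lower, and the control libraries were close to each other. The log2 fold change was -0.97 ± 0.28 (SE; adjusted p = 0.0096 by edgeR), and it missed the threshold with the DESeq2 Wald test (adjusted p = 0.0694) and without EV library 1. The 8 counts of EV library 1 were the lowest value of any of the 10 genes, with an exact 95% Poisson interval of 3.45 to 15.8, which covers counting error only.

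Anxa5, known as a probe for phosphatidylserine on dying cells, was the exception among the annexins. On chromosome 3 (36448923 to 36475887, minus strand), it had 87, 87 and 79 counts in control libraries and 73, 91 and 95 in EV libraries. The groups overlapped, at 142 ± 18.6 normalized CPM in control and 166 ± 14.7 in EV libraries (SD, n = 3 per group). The log2 fold change was 0.23 ± 0.16 (SE; adjusted p = 0.287 by edgeR), and its 95% interval reached from 0.944 to 1.46 times the control level. In the fit restricted to genes with no opposite-strand overlap the value was 0.41 (adjusted p = 0.0636 by edgeR).

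Ratios of raw counts within a library restate this contrast with no scaling between libraries. Their divisor here, Anxa5, was the annexin that had not fallen, so lower ratios were built in and give no further support. Anxa1 had 0.506, 0.908 and 0.608 counts for each count of Anxa5 in control libraries, and 0.151, 0.231 and 0.253 in EV libraries. For Anxa2 the ratio to Anxa5 was 1, 1.08 and 1.06 in control libraries and 0.507, 0.692 and 0.537 in EV libraries. For Anxa6 it was 0.379, 0.391 and 0.38 in control libraries and 0.11, 0.22 and 0.158 in EV libraries. None of these 3 ratios overlapped between the groups. Each had p = 0.1 in a two-sided exact permutation test, the smallest p that 3 against 3 libraries allow, and 0.133 after Benjamini-Hochberg adjustment over 8 pairs of genes, which were chosen after their values were seen.

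**Figure D3:**
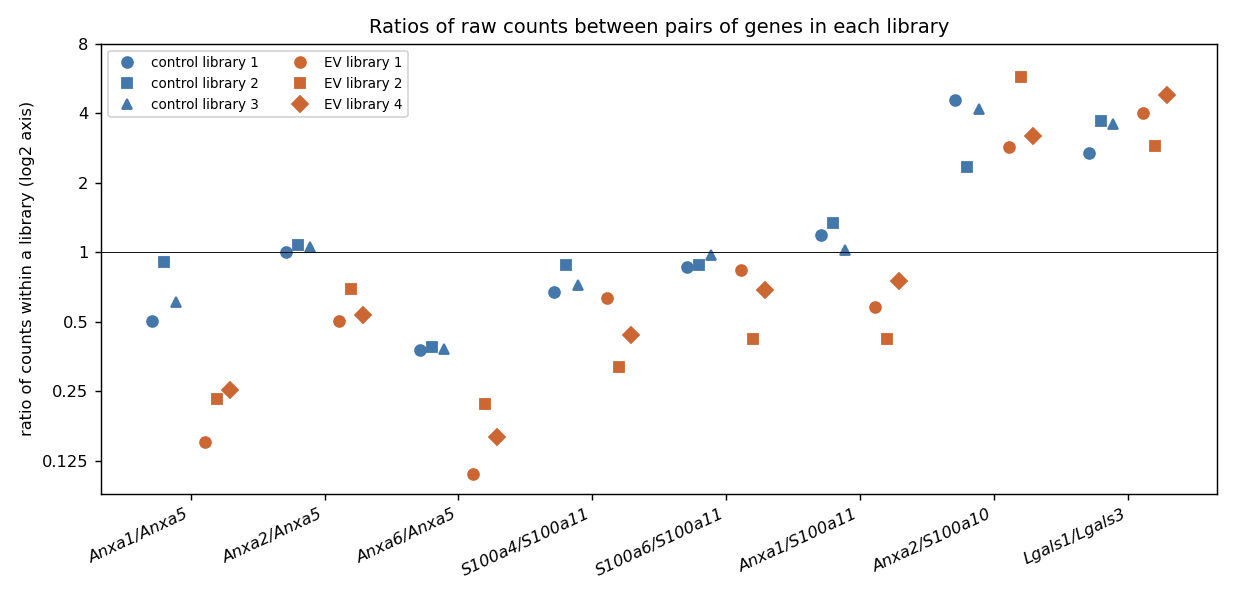
Ratio of the raw counts of pairs of genes within each library, on a log2 axis, with control libraries in blue and EV libraries in orange. In the 6 pairs with Anxa5 or S100a11 as the divisor the EV libraries lie below the control libraries, while Anxa2/S100a10 and Lgals1/Lgals3 overlap. Anxa5 and S100a11 are the genes that did not pass the test, so lower ratios to them were built in.

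Of the 12 annexin genes listed for the family, 7 had enough counts to be tested, and those that passed were the 3 described above. Of all genes tested, 14.3% were lower. With the DESeq2 Wald test 1 of the 7 annexins passed, against 5.8% of all genes tested that were lower. The other 3 tested annexins, Anxa4, Anxa7 and Anxa9, had log2 fold changes close to 0, with a median of -0.035. Exons of Anxa4 and Anxa9 are overlapped by a gene on the opposite strand. The median of the 7 tested annexins was -0.043, and none of them rose. Of the 5 that were not tested, Anxa3 had the most counts. It had 15, 20 and 10 counts in control libraries and 2, 2 and 8 in EV libraries. These annexins were named after their values were seen.

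The S100 genes S100a4 and S100a6 lie close together on chromosome 3. S100a4 (90603770 to 90606045, plus strand), which encodes a protein long used as a fibroblast marker and known for binding myosin, had 25, 52 and 34 counts in control libraries and 12, 16 and 14 in EV libraries. The EV libraries were close together and below all control libraries. Its log2 fold change was -1.19 ± 0.28 (SE; adjusted p = 0.00154 by edgeR), and the counts fell by 56.2%. S100a6 (90612894 to 90614414, plus strand), which encodes calcyclin, had 32, 52 and 46 counts in control libraries and 16, 21 and 22 in EV libraries. The groups did not overlap, and the log2 fold change was -0.93 ± 0.24 (SE; adjusted p = 0.00409 by edgeR). Both genes passed in all 13 alternatives. S100a5, which lies between them, and S100a3, before S100a4, were at 0 in every library.

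S100a11, whose protein binds ANXA1 and ANXA2, lies farther along chromosome 3 (93520496 to 93526288, plus strand). It had 37, 59 and 47 counts in control libraries and 19, 50 and 32 in EV libraries. EV library 2 was as high as the control libraries, and the groups overlapped. The log2 fold change was -0.30 ± 0.22 (SE; 95% interval -0.75 to 0.14, adjusted p = 0.325 by edgeR). It was -0.61 without EV library 2 (adjusted p = 0.0904 by edgeR) and -0.04 without EV library 1 (adjusted p = 0.918 by edgeR), so single libraries decided the size of this value. The ratio of S100a4 to S100a11 was 0.676, 0.881 and 0.723 in control libraries and 0.632, 0.32 and 0.438 in EV libraries. In the same exact permutation test p was 0.1, and 0.133 after Benjamini-Hochberg adjustment over the 8 pairs. S100a11, which had not passed, was chosen as the divisor after its values were seen.

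Of the 16 S100 genes listed, 4 had enough counts to be tested, 2 fell and none rose, while 7 were at 0 in every library. Of all genes tested, 14.3% were lower and 7.58% were higher. The fourth tested S100 gene was S100a10, which encodes the partner of ANXA2 and was named after its values were seen. It had 19, 40 and 20 counts in control libraries and 13, 11 and 16 in EV libraries, which do not overlap. Its log2 fold change of -0.77 did not pass the threshold (adjusted p = 0.0615 by edgeR). The ratio of Anxa2 to S100a10 lay between 2.35 and 4.58 in control libraries and between 2.85 and 5.73 in EV libraries (p = 1, exact permutation test, n = 3 per group).

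Both galectins fell. Lgals1, which encodes the secreted galectin-1 of fibroblasts and muscle, lies on chromosome 15 (78926725 to 78930465, plus strand). It had 100, 141 and 115 counts in control libraries and 36, 55 and 67 in EV libraries. The highest EV library was well below the lowest control library. The level went from 198 ± 27.3 to 100 ± 26.4 normalized CPM (SD, n = 3 per group), a log2 fold change of -0.97 ± 0.17 (SE; adjusted p = 2.84e-05 by edgeR).

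Lgals3, which encodes the galectin that marks damaged endosomes, lies on chromosome 14 (47373860 to 47386167, plus strand). It had 37, 38 and 32 counts in control libraries and 9, 19 and 14 in EV libraries. The groups did not overlap, and the log2 fold change was -1.15 ± 0.27 (SE; adjusted p = 0.00193 by edgeR). The ratio of Lgals1 to Lgals3 lay between 2.7 and 3.71 in control libraries and between 2.89 and 4.79 in EV libraries (p = 0.4, exact permutation test, n = 3 per group), and these ranges overlap. Of the other genes on the galectin list, 4 had enough counts to be tested, with a median log2 fold change of -0.085. None of these 4 passed the threshold, which 21.9% of all genes tested did in either direction. Values below 0 were found for Lgals8 (-0.56) and Lgals3bp (-0.89). Exons of Lgals8 are overlapped by Heatr1 on the opposite strand, and Lgals3bp encodes a protein that binds a galectin and is not itself a galectin. Values above 0 were found for Lgals2 and Lgals12. All 4 were named after their values were seen. Lgals2 had 48, 56 and 53 counts in control libraries and 60, 72 and 48 in EV libraries, with a log2 fold change of 0.40 ± 0.18 (SE; adjusted p = 0.103 by edgeR). After scaling its groups did not overlap, it passed in 1 of 12 alternatives, and its exons are overlapped by Cdc42ep1 on the opposite strand. Lgals12 had a log2 fold change of 0.39.

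Levels of different genes were compared per length, as normalized CPM per kilobase of exon. In control libraries Lgals1 was the highest of the 10 genes, at 219 ± 30.3 CPM per kb (SD, n = 3), followed by S100a11 at 155 ± 28.8 and S100a4 at 105 ± 35.0. Anxa5 followed at 79.8, S100a6 at 52.5, Anxa2 at 39.7, Anxa1 at 32.6 and Lgals3 at 32.3. Anxa6 at 18.6 and Myof at 14 were the lowest. The ranges of S100a11 and S100a4, of S100a4 and Anxa5, of Anxa2 and Anxa1, and of Anxa1 and Lgals3 overlapped, so these neighbours did not differ beyond their spread.

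In EV libraries S100a11 came first, at 124 ± 47.0 CPM per kb, before Lgals1 at 111 ± 29.2 and Anxa5 at 93.2 ± 8.26 (SD, n = 3 each). Among 4691 genes ranked by this level, Lgals1 went from rank 164 to 361, Myof from 2077 to 2817, and Anxa5 from 507 to 450. With the longest transcript as length in place of all exons, S100a6 came before Anxa5 and Myof before Anxa6 in control libraries.

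**Figure D4:**
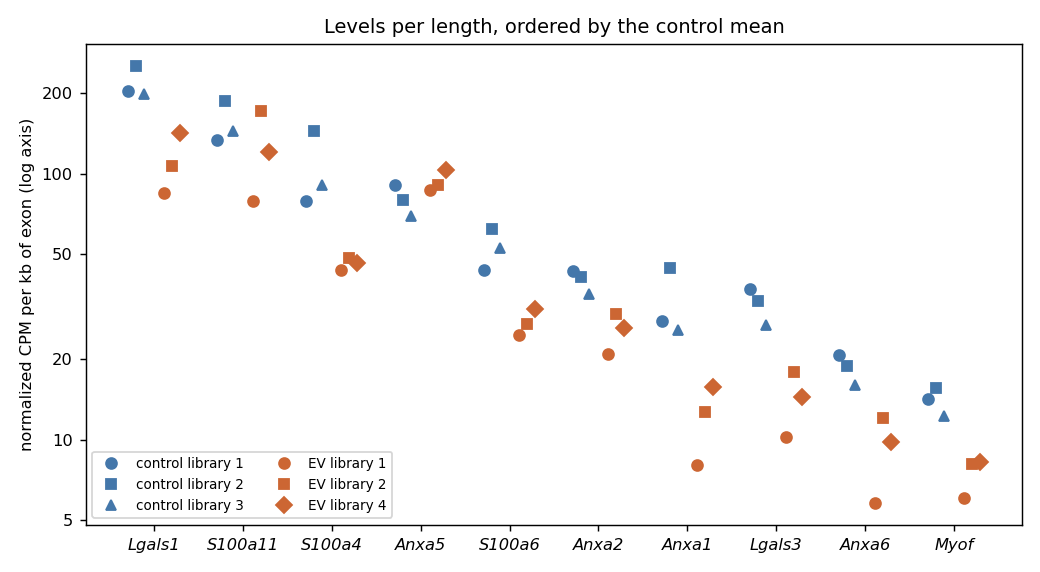
Normalized CPM per kb of exon for each gene and library, on a log axis, ordered by the mean of the control libraries. Lgals1 has the highest control level (219) and Myof the lowest (14), and in the EV libraries S100a11 and Anxa5 keep levels that overlap those of the control libraries.

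The genes whose profile over the 6 libraries was most like that of Myof were Arpc1b, Calr and Rps26. Likeness was measured as the root mean square difference of log2 normalized CPM, each gene centred on its own mean, among 5047 genes. It was 0.0679 for Arpc1b, a subunit of the Arp2/3 complex that branches actin, 0.0751 for Calr, the calcium-binding chaperone calreticulin, and 0.0771 for Rps26, a ribosomal protein gene of a kind with many pseudogenes, between which reads can be split. The median over all genes compared was 0.575. Arpc1b has an opposite-strand overlap in the annotation, while Calr and Rps26 have none.

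Partners of these proteins in plasma membrane repair and scission were taken from a list of 23 genes, 13 of which had enough counts to be tested. Of these, 8 were lower after EV treatment and none was higher, where 14.3% of all genes tested were lower, with a median log2 fold change of -0.86 against 0.014 for all genes. Ahnak, the giant scaffold that binds the ANXA2 and S100A10 complex, had 288, 378 and 315 counts in control libraries and 137, 167 and 167 in EV libraries. These did not overlap, and the log2 fold change was -0.86 ± 0.12 (SE; adjusted p = 1.44e-07 by edgeR). Cav1, the coat protein of caveolae, had a log2 fold change of -0.73 and Chmp4b, an ESCRT-III subunit that cuts membranes, of -1.03. Those 2 and Ahnak passed in every alternative that tested them.

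Pdcd6ip, which encodes the ESCRT adaptor ALIX, had a log2 fold change of -0.91, and Capns1, the small calpain subunit, of -1.30. Pdcd6ip passed in 5 of 12 alternatives and Capns1 in 6 of 10. The number of list genes lower was 3 of 13 with the DESeq2 Wald test (5.8% of all genes tested), 3 of 21 with no filter (539 of all 15321 genes tested), and 3 of 7 with at least 10 counts in every library (473 of 3613). It was 3 of 7 among genes with no opposite-strand overlap (312 of 2580) and 3 of 14 without EV library 1 (500 of 5788). It was 4 of 13 without control library 2 (390 of 5221), 4 of 14 without EV library 4 (535 of 5796), 5 of 13 without control library 1 (571 of 5507) and 5 of 13 without EV library 2 (597 of 5514).

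Other EF-hand calcium binders and proteins of the calcium store formed a list of 18 symbols for 17 genes, since Cab45 is an alias of Sdf4. Of these genes 13 were tested, 4 were lower and none was higher, where 14.3% of all genes tested were lower. The median log2 fold change was -0.62, against 0.014 for all genes tested. Calr went from 692 ± 80.9 to 379 ± 61.1 normalized CPM (SD, n = 3 per group), a log2 fold change of -0.86 ± 0.11 (SE; adjusted p = 8.79e-08 by edgeR). Sparc, a matrix protein also on the fibroblast list, had a log2 fold change of -1.01, and Hspa5, the chaperone BiP, of -0.79. Calr, Sparc and Hspa5 passed in every alternative, and with the total library size as the sole scaling 7 genes of the list were lower, beside 962 of all 5066 genes tested.

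**Figure D5:**
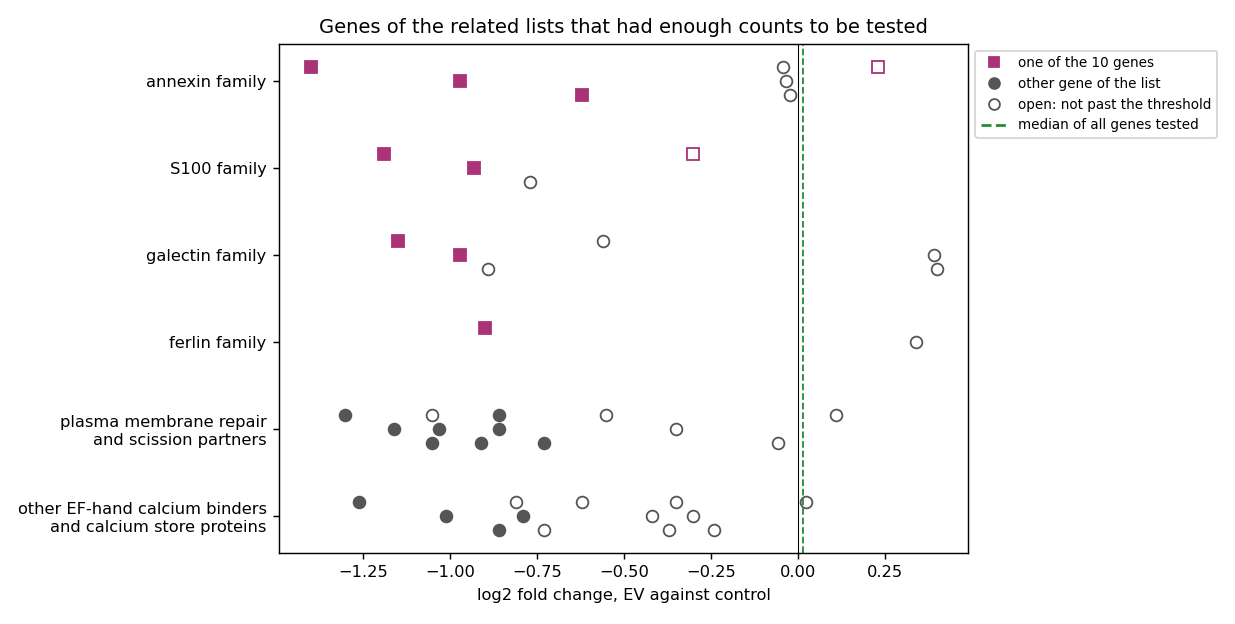
Log2 fold change, EV against control, of each list gene that had enough counts to be tested, by list; squares are the 10 genes, circles other genes of the lists, and open symbols did not pass an adjusted p of 0.05. No filled symbol lies to the right of 0, and the dashed line is the median of all genes tested (0.014).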

How the data were processed

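RNA-seq libraries of 3T3-L1 cells treated with EVs (3 libraries) or with a control preparation (3 libraries) were used. After quality control in FastQC, the authors mapped the reads to mm10 by STAR and made the deposited table of raw counts, which is not normalized, by Rsubread. Versions, annotation release, strand setting and the treatment of multimapped reads are not given in the sources used here. Plates and preparations were separate within a group, but all cells were of 1 line.

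Counts were tested with glmQLFit and glmQLFTest of edgeR 4.0.16 (R 4.3.3) after filterByExpr and TMM, with no covariate, with Benjamini-Hochberg adjustment over 5066 genes and a threshold of 0.05. SE was taken as log2 fold change over the square root of F. Ratios were tested with scipy 1.17.1. Overlaps and lengths came from GENCODE vM21, and promoter windows and symbols from RefSeq, both on GRCm38, the assembly of mm10. Genes that never exceeded 3 counts got no fold change. Alternatives were DESeq2 1.42.0 (size factors or Wald test), total library size, a minimum of 10 counts in all libraries, no filter, a replicate block, genes with no opposite-strand overlap, and each library left out. The fits were tested on simulated data. Replicates differed by more than sampling noise, so none was counted as a duplicate.

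The genes and lists were chosen with earlier results of these data known. Named were the 10 genes, at most 5 genes per list and direction with the lowest adjusted p among those past the threshold, genes that overlap a member on the opposite strand, and the 3 genes most like Myof. One list gene that the rule names is not reported here. Marker lists covered the fibroblast, the epithelial donor cell and the macrophage.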

Additional observations from a re-analysis of the deposited data

How the results depend on the processing

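None of the log2 fold changes of the 10 genes changed sign in the alternatives that could be run. Myof, Anxa1, S100a4, S100a6, Lgals1 and Lgals3 passed the threshold in each alternative that tested them, while Anxa5 and S100a11 passed in none. The number of the 10 genes called was 8, or 6 with the DESeq2 Wald test and 7 without a filter. With at least 10 counts in every library it was 6 of 8 tested (Anxa6 and Lgals3 were not tested), and without opposite-strand overlaps 7 of 9 (Anxa2 was left out by construction). In that last fit the median log2 fold change of the 9 was -0.79, against -0.023 for all genes it tested. Leaving out 1 library gave between 6 and 8 genes and a median log2 fold change between -1.05 and -0.76.

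Of all genes tested, 1107 passed. The number was 539 with the DESeq2 Wald test, 615 with at least 10 counts in every library and 533 among genes with no opposite-strand overlap, the last 2 with fewer genes tested. Leaving out 1 library gave between 455 and 1154 genes, with 455 without control library 2 and 698 without control library 1. The cause was not tested. The split was 723 lower and 384 higher with TMM, and 962 lower and 89 higher with the total library size alone. That scaling moved the median of all genes tested to -0.12, and the median of the 10 genes to -1.09, a difference of -0.97. With no filter the median of all genes was -0.13.

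Replicate numbers 1 and 2 occur in both groups. Deviations from the group means correlated at 0.0714 between the libraries numbered 1 and at 0.0634 between those numbered 2. The next highest value was 0.0552, between control library 2 and EV library 4. With no label that ties a number to a shared day or batch, the numbers were not taken as pairs. With the number as a replicate block, 1115 genes passed, among them 8 of the 10 genes, with a median log2 fold change of -1.09 for the 10. Control library 3 and EV library 4 share their number with no other library. The fold changes of this fit therefore rest on the libraries numbered 1 and 2 alone. Counts of 8 to 141 per gene and library limit the precision, and no smallest detectable change was computed for a gene. In the simulated data edgeR recovered 80.2% of the tested genes given a log2 fold change of 1 in either direction. The DESeq2 Wald test recovered 57.3% of them. False calls made up 5.68% of the calls by edgeR and 0% of those by DESeq2. In the simulation increases and decreases were equally frequent, all genes had the same dispersion, and genes with few counts were not changed. The real data differ from this setting, so these rates are not the power in these data.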
